A study of Mus musculus with 12 samples.

Results

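The genes described here are 10 transcription factors of effector T cell differentiation: *Tbx21*, *Eomes*, *Prdm1*, *Id2*, *Id3*, *Zeb1*, *Zeb2*, *Bhlhe40*, *Maf* and *Rora*. They were taken by symbol from a table of 49585 genes, in which all 10 were found. RNA-seq of lymph node (LN) T cells gave 4 groups of 3 samples, 12 in all. CD4+ and CD8+ T cells came from C57BL/6 (B6) mice. CD8Dual mice, named 8in4 in the labels, gave CD8.1 cells and CD8.2 cells. In CD8Dual mice an altered *Cd4* locus encodes a CD8 co-receptor with the CD8α.1 chain, and the intact *Cd8* locus encodes CD8α.2, so that CD8.1 cells carry a co-receptor made from the *Cd4* locus and CD8.2 cells one made from the *Cd8* locus. The labels give male mice aged 6 to 10 weeks for all groups and no treatment. All cells were sorted as CD62L+ and H57+ (TCRβ), and RNA came from pooled cells. The methods add a CD44- gate that the labels do not name.

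T-bet (*Tbx21*) and eomesodermin (*Eomes*) are T-box factors that switch on cytotoxic and type 1 effector genes in CD8+ and NK cells. Blimp-1 (*Prdm1*), c-Maf (*Maf*), Bhlhe40 and RORα (*Rora*) act in effector, helper and regulatory T cells, where c-Maf and Blimp-1 promote IL-10. Id2 and Id3 lack a DNA-binding domain and hold E proteins off DNA, with Id2 linked to effector and Id3 to memory fates. Zeb1 and Zeb2 are zinc finger repressors that bind E-box motifs, and Zeb2 cooperates with T-bet in terminal effector CD8+ cells.

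The total count was 18667474 to 37110502 per sample, so 3 counts, the floor used here, came to 0.0875 to 0.167 CPM, the count of a gene scaled by library size. *Cd4* was at 908 to 1000 CPM in B6 CD4+ cells, and was at 47.2 to 51.5 CPM in CD8.1 cells and at most 1.79 CPM in both other groups. *Zbtb7b*, which encodes the helper factor ThPOK, was at 117 to 173 CPM in B6 CD4+ cells and CD8.1 cells and at most 2.11 CPM in the others, and 7 T cell markers summed to 4170 to 5070 CPM in every sample. By a chi-square per gene between replicate counts, which grows with depth, CD8.1 replicate 1 and CD8.2 replicate 3 stood furthest from their replicates. CD8.2 replicate 3 also had the highest total count, 37110502. Results that change without either are given with the value without it. Nothing says that the samples of a group came from separate mice, so p-values measure the spread between samples, which may be technical.

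Upstream sequences are shown for *Tbx21*, *Eomes* and *Prdm1*, which differed by more than 5-fold within a strain. RefSeq promoters (GRCm38.p6) were matched for 7 of the 10 genes, with none for *Zeb1*, *Bhlhe40* and *Maf*. The 250 bases before each start are given 5′ to 3′ on the gene's strand. Capitals mark E-boxes (CANNTG, which include the form CACCTG preferred by ZEB proteins).
*Tbx21*, chr11:97115332-97115581, minus strand: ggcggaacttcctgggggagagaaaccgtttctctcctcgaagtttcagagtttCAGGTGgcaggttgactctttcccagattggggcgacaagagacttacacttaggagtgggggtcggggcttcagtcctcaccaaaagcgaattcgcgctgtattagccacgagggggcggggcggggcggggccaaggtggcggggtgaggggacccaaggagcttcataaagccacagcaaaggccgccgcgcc
*Eomes*, chr9:118477939-118478188, plus strand: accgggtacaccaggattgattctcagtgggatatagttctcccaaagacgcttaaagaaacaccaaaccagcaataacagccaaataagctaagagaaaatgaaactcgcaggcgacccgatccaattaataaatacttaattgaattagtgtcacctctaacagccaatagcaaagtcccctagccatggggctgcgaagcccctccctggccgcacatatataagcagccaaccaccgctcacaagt
*Prdm1*, chr10:44458749-44458998, minus strand: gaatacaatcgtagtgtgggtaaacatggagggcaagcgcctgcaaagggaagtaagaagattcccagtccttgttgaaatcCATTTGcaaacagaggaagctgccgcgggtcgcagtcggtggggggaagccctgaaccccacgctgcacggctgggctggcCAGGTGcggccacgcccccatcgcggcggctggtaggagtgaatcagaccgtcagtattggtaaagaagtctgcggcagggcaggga
The *Tbx21* window held 1 E-box, of the CACCTG form read on the opposite strand, starting 196 bases before the start. The *Prdm1* window, which lies inside the annotated gene but outside its exons, held 2, at 168 and 87 bases, of which the nearer is of the CACCTG form, again on the opposite strand. The *Eomes* window held none. Of 32851 upstream windows of this length, 66.2% held CANNTG and 17.2% held CACCTG on either strand. A T-box motif (GGTGTGA, in 3.33% of windows) and a Maf recognition motif (TGCTGA, in 16.1%) were searched on both strands and were in none of the 3 windows.

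Both T-box factors were higher in B6 CD8+ cells and CD8.2 cells (CD8-type) than in B6 CD4+ cells and CD8.1 cells (CD4-type). *Tbx21* (ENSMUSG00000001444.2, chromosome 11, 97098071 to 97115331) was at 0.955, 1.51 and 2.00 CPM in B6 CD4+ cells and at 31.0, 30.7 and 37.4 CPM in B6 CD8+ cells. In CD8Dual mice it was at 1.24, 1.42 and 1.71 CPM in CD8.1 cells and at 14.3, 13.8 and 15.5 CPM in CD8.2 cells. The CD8.2 samples thus stood between B6 CD8+ cells and both CD4-type groups without overlap, while B6 CD4+ and CD8.1 samples overlapped. The log2 fold change was −4.46 (SE 0.185, adjusted p = 6.29e-11, edgeR) for B6 CD4+ against B6 CD8+ cells, a 22.0-fold difference, and −3.32 (SE 0.189, adjusted p = 3.32e-09, edgeR) for CD8.1 against CD8.2 cells. Between strains, *Tbx21* was lower in CD8.2 cells than in B6 CD8+ cells, with a log2 fold change of −1.18 (SE 0.145, adjusted p = 0.000236, edgeR), a 2.26-fold difference. For CD8.1 against B6 CD4+ cells the value was −0.04 (SE 0.238, adjusted p = 0.935, edgeR). In these bulk samples, fewer cells of a type and less RNA per cell cannot be told apart.

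*Eomes* (ENSMUSG00000032446.14, chromosome 9, 118478212 to 118486132) was at 5.41, 6.98 and 4.85 CPM in B6 CD4+ cells and at 76.7, 69.4 and 113 CPM in B6 CD8+ cells. It was at 7.02, 13.1 and 9.59 CPM in CD8.1 cells and at 81.0, 78.1 and 75.6 CPM in CD8.2 cells. All CD8-type samples were above all CD4-type samples, and CD8.2 overlapped with B6 CD8+ cells. Fitted log2 fold changes were −3.90 (SE 0.219, adjusted p = 1.92e-09, edgeR) within B6 mice and −2.98 (SE 0.207, adjusted p = 3.38e-08, edgeR) within CD8Dual mice. For CD8.2 against B6 CD8+ cells the value was −0.14 (SE 0.181, adjusted p = 0.702, edgeR). CD8.1 cells had more *Eomes* than B6 CD4+ cells by 0.79 on the log2 scale (SE 0.228, adjusted p = 0.0347, edgeR). That call was lost without B6 CD4 replicate 1 or 3 or CD8.1 replicate 2 or 3 (adjusted p up to 0.175, edgeR), and was at adjusted p = 0.0959 with limma-voom. An antisense gene, *Gm33460*, overlaps *Eomes* and was not analysed here, and no use of strand in counting is given in the sources used here.

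Per kilobase of exon, which allows only a rough comparison between different genes, *Eomes* exceeded *Tbx21* in all 12 samples. The length was that of all annotated exons of a gene merged, which can exceed the length of the transcripts present. The ratio of *Eomes* to *Tbx21* was 1.48, 1.36 and 1.80 in B6 CD8+ cells and 3.39, 3.38 and 2.93 in CD8.2 cells, so the groups did not overlap. It was 3.39, 2.77 and 1.45 in B6 CD4+ cells and 3.39, 5.54 and 3.36 in CD8.1 cells. The ratios were not tested, since 3 samples against 3 cannot give an exact permutation p under 0.10.

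Markers of other T cell states are given beside these factors. The 10 memory T cell markers summed to 2120 to 2520 CPM in B6 CD8+ cells, 1460 to 1540 CPM in CD8.2 cells, 541 to 618 CPM in CD8.1 cells and 233 to 291 CPM in B6 CD4+ cells. Abundant genes such as *Ly6c2* and *Nkg7* made up much of these sums, and 4 of the 10 (*Il2rb*, *Cxcr3*, *Ccl5* and *Nkg7*) are known T-box targets. Within CD8Dual mice 6 of the 10 were lower in CD8.1 cells and 3 (*Cd44*, *S100a4* and *S100a6*) were higher, where 13.8% and 14.9% of all genes were. *S100a6* was at 44.3 CPM in CD8.1 cells against 5.47 CPM in CD8.2 cells. The 7 NK and NKT cell markers summed to 8.39 to 12.7 CPM in B6 CD8+ cells, 2.95 to 4.61 CPM in CD8.2 cells, 3.34 to 5.44 CPM in CD8.1 cells and 1.14 to 1.96 CPM in B6 CD4+ cells. The ranges of CD8.1 and CD8.2 samples overlapped, and *Klre1* gave 5.65 to 7.84 CPM of the sum in B6 CD8+ cells. Single markers went both ways within CD8Dual mice, where 4 of the 7 were tested. *Klrb1c* was called with the higher level in CD8.2 cells, at a mean of 1.5 CPM against 0.545 CPM in CD8.1 cells. *Fcer1g* was called with the higher level in CD8.1 cells, at a mean of 0.934 CPM against 0.355 CPM in CD8.2 cells. *Zbtb16*, which defines NKT cells, was at 0 in all B6 samples, at most 0.0426 CPM in CD8.2 cells and 0.191 to 1.02 CPM in CD8.1 cells, and *Ncr1*, a defining NK gene, was at most 0.345 CPM in every sample. Their part in the T-box results was not tested.

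**Figure D1:**
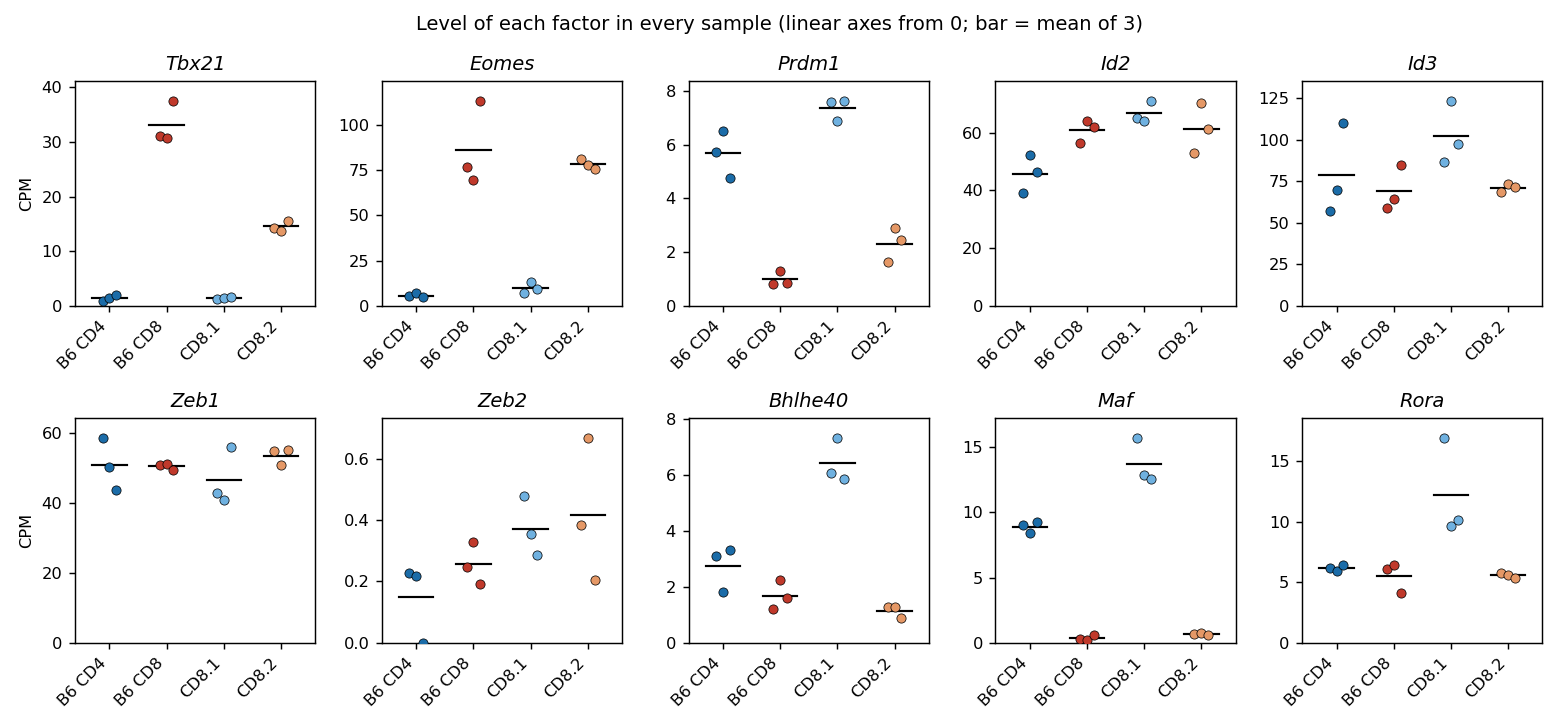
Each panel gives 1 factor in CPM on a linear axis from 0, with 1 point per sample, 3 per group, and a bar at the group mean. *Tbx21* and *Eomes* are high in both CD8-type groups, with CD8.2 at 13.8 to 15.5 CPM of *Tbx21* against 30.7 to 37.4 CPM in B6 CD8+ cells, while *Maf* and *Prdm1* are high in both CD4-type groups.

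*Maf* and *Prdm1* showed the opposite pattern. *Maf* (ENSMUSG00000055435.6, chromosome 8, 115682942 to 115707794) was at 9.05, 8.45 and 9.23 CPM in B6 CD4+ cells and at 0.287, 0.218 and 0.577 CPM in B6 CD8+ cells. It was at 15.7, 12.9 and 12.6 CPM in CD8.1 cells and at 0.681, 0.722 and 0.583 CPM in CD8.2 cells. No 2 groups overlapped, with CD8.1 highest and B6 CD8+ cells lowest. In log2 terms the difference was 4.66 (SE 0.241, adjusted p = 8.39e-10, edgeR) within B6 mice, the largest among the 9 factors tested in that comparison, and 4.39 (SE 0.216, adjusted p = 6.30e-10, edgeR) within CD8Dual mice. CD8.1 exceeded B6 CD4+ cells by 0.62 on the log2 scale (SE 0.164, adjusted p = 0.0225, edgeR), which was lost without B6 CD4 replicate 1 (adjusted p = 0.0754) or replicate 2 (adjusted p = 0.0976). The difference of 0.90 between CD8.2 and B6 CD8+ cells rested on 49 and 25 counts in all and did not pass (SE 0.322, adjusted p = 0.102, edgeR), but passed without B6 CD8 replicate 3 (adjusted p = 0.0289).

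*Prdm1* (ENSMUSG00000038151.12, chromosome 10, 44437177 to 44528501) was at 5.73, 6.51 and 4.76 CPM in B6 CD4+ cells and at 0.819, 1.31 and 0.866 CPM in B6 CD8+ cells. In CD8Dual mice it was at 7.59, 6.86 and 7.60 CPM in CD8.1 cells and at 1.62, 2.89 and 2.45 CPM in CD8.2 cells. Here too no neighbouring groups overlapped. Fitted differences on the log2 scale were 2.48 (SE 0.243, adjusted p = 1.52e-06, edgeR) within B6 mice and 1.67 (SE 0.219, adjusted p = 3.90e-05, edgeR) within CD8Dual mice. CD8.2 cells had 2.28-fold more *Prdm1* than B6 CD8+ cells (log2 fold change 1.19, SE 0.256, adjusted p = 0.0110, edgeR). Without B6 CD8 replicate 1, CD8.2 replicate 2 or CD8.2 replicate 3 the adjusted p was 0.061, 0.0539 and 0.0531. For CD8.1 against B6 CD4+ cells, the log2 fold change of 0.37 did not pass (SE 0.205, adjusted p = 0.242, edgeR). Plasma cells also express *Prdm1*. Of 7 B and plasma cell markers, 3 (*Cd79a*, *Ms4a1* and *Jchain*) were higher in CD8.2 cells than in B6 CD8+ cells, where 3.29% of all genes were. *Jchain* was at 1.66 to 2.22 CPM in CD8.2 cells against 0.144 to 0.368 CPM in B6 CD8+ cells. The 7 markers summed to 69.2 to 120 CPM in CD8.2 cells, 57.0 to 69.5 CPM in B6 CD8+ cells, 95.7 to 145 CPM in CD8.1 cells and 67.4 to 83.5 CPM in B6 CD4+ cells, and their part in the *Prdm1* results was not tested.

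*Bhlhe40* and *Rora* were highest in CD8.1 cells. *Bhlhe40* (ENSMUSG00000030103.11, chromosome 6, 108660629 to 108666925) was at 6.06, 7.30 and 5.84 CPM in CD8.1 cells. It was at 3.09, 1.81 and 3.32 CPM in B6 CD4+ cells, 1.19, 2.25 and 1.59 CPM in B6 CD8+ cells and 1.28, 1.28 and 0.875 CPM in CD8.2 cells. CD8.1 samples were above all others, and each other neighbour in the order of means overlapped. On the log2 scale *Bhlhe40* differed by 2.51 (SE 0.282, adjusted p = 8.16e-06, edgeR) for CD8.1 against CD8.2 cells and 1.22 (SE 0.257, adjusted p = 0.00725, edgeR) for CD8.1 against B6 CD4+ cells. Within B6 mice it was 0.70 and did not pass (SE 0.277, adjusted p = 0.0869, edgeR), but passed without B6 CD4 replicate 2 (adjusted p = 0.0259) or B6 CD8 replicate 2 (adjusted p = 0.0359).

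*Rora* (ENSMUSG00000032238.17, chromosome 9, 68653786 to 69388246) was at 16.9, 9.64 and 10.1 CPM in CD8.1 cells, so that 1 library stood well above the other two. It was at 6.14, 5.95 and 6.38 CPM in B6 CD4+ cells, 6.06, 6.44 and 4.14 CPM in B6 CD8+ cells and 5.79, 5.61 and 5.37 CPM in CD8.2 cells. CD8.1 did not overlap with any other group. *Rora* in CD8.1 cells was higher by 1.13 on the log2 scale (SE 0.206, adjusted p = 0.00077, edgeR) against CD8.2 and 0.99 (SE 0.205, adjusted p = 0.00694, edgeR) against B6 CD4+ cells. Without CD8.1 replicate 1 these were 0.80 and 0.67 (adjusted p = 0.00164 and 0.0109, edgeR). Within B6 mice the log2 fold change was 0.14 (SE 0.211, adjusted p = 0.703, edgeR).

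Regulatory T cells express *Maf*, *Prdm1* and *Rora*, and their markers were highest in CD8.1 cells. All 10 regulatory T cell markers were higher in CD8.1 cells than in CD8.2 cells and than in B6 CD4+ cells (adjusted p under 0.05, edgeR). In B6 CD4+ cells 9 were higher than in B6 CD8+ cells. Of all genes, 14.9%, 6.94% and 11.4% were higher in these comparisons, in that order. They summed to 647 to 726 CPM in CD8.1 cells, 244 to 361 CPM in B6 CD4+ cells, 94.3 to 99.9 CPM in CD8.2 cells and 92.1 to 97.2 CPM in B6 CD8+ cells. *Foxp3*, the defining factor of these cells, was at 102 to 168 CPM in CD8.1 cells, 32.6 to 44.6 CPM in B6 CD4+ cells, 0.809 to 1.46 CPM in CD8.2 cells and 0.182 to 0.529 CPM in B6 CD8+ cells. All 10 memory markers were higher in CD8.1 cells than in B6 CD4+ cells too, where 6.94% of all genes were. Among them was *Cd44*, at 67.9 to 77.8 against 33.4 to 37.5 CPM. The part of such cells in the levels of *Maf*, *Prdm1*, *Rora*, *Bhlhe40*, *Id2* and *Eomes* in CD8.1 cells was not tested. Among other cell types, markers of gamma delta T cells summed to at most 15.3 CPM, of myeloid and dendritic cells to at most 23.9 CPM and of stromal and endothelial cells to at most 207 CPM in any sample. Of this last sum *Pecam1* gave up to 206 CPM, while *Cdh5*, *Pdpn*, *Col1a1* and *Col3a1* were each at most 0.808 CPM in any sample.

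The Id genes differed little. *Id2* (ENSMUSG00000020644.8, chromosome 12, 25093799 to 25097140) was at 39.0, 52.1 and 46.4 CPM in B6 CD4+ cells, 56.5, 63.9 and 62.0 CPM in B6 CD8+ cells, 65.2, 64.0 and 70.8 CPM in CD8.1 cells and 52.8, 70.4 and 61.1 CPM in CD8.2 cells. B6 CD4+ samples were thus the lowest, and the other groups overlapped with their neighbours. The log2 fold change was −0.41 (SE 0.114, adjusted p = 0.0161, edgeR) for B6 CD4+ against B6 CD8+ cells, which was lost without B6 CD4 replicate 1 (adjusted p = 0.0688) or B6 CD8 replicate 2 (adjusted p = 0.0621). It was 0.54 (SE 0.114, adjusted p = 0.00751, edgeR) for CD8.1 against B6 CD4+ cells and 0.12 (SE 0.113, adjusted p = 0.462, edgeR) for CD8.1 against CD8.2 cells.

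*Id3* (ENSMUSG00000007872.3, chromosome 4, 136143497 to 136145755) was at 57.2, 69.8 and 110 CPM in B6 CD4+ cells, 59.2, 64.4 and 84.7 CPM in B6 CD8+ cells, 86.4, 123 and 97.3 CPM in CD8.1 cells and 68.7, 73.3 and 71.7 CPM in CD8.2 cells. CD8.1 samples were above CD8.2 samples without overlap, with a log2 fold change of 0.52 that did not pass (SE 0.195, adjusted p = 0.0569, edgeR). This passed without CD8.1 replicate 1 (0.62, adjusted p = 0.0314), without B6 CD4 replicate 1 or 3 or without B6 CD8 replicate 3. For CD8.1 against B6 CD4+ cells the log2 fold change of 0.37 did not pass (SE 0.195, adjusted p = 0.224, edgeR), but did without B6 CD4 replicate 3 (0.66, adjusted p = 0.0123). *Id3* had the highest level per kilobase of exon among the 10 factors in each group, at 38.8 to 57.1 CPM per kilobase, and *Id2* the next highest. The ratio of *Id3* to *Id2* per kilobase was 2.35 ± 0.771 in B6 CD4+ cells, 1.55 ± 0.268 in B6 CD8+ cells, 2.10 ± 0.452 in CD8.1 cells and 1.60 ± 0.177 in CD8.2 cells (SD, n = 3).

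**Figure D2:**
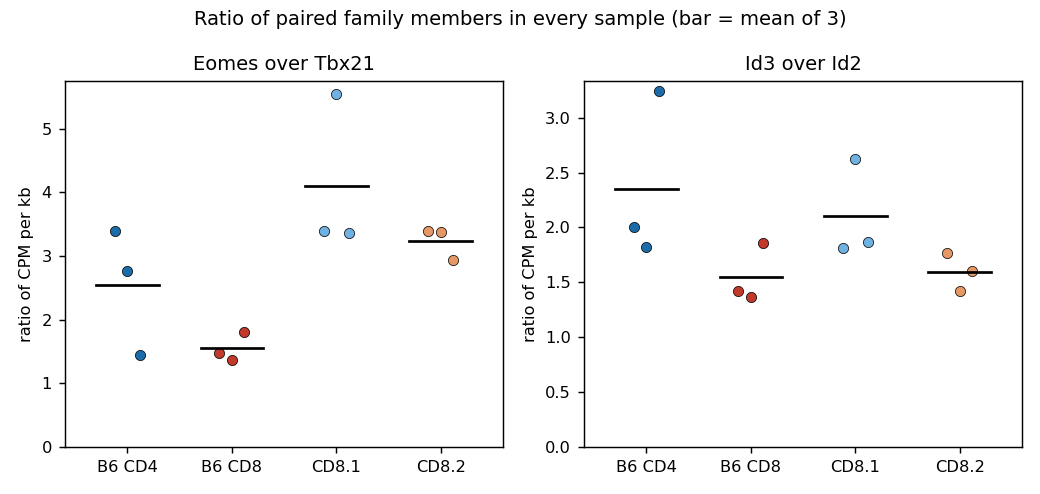
Points give the ratio of CPM per kilobase of exon in each sample, *Eomes* over *Tbx21* on the left and *Id3* over *Id2* on the right, on linear axes from 0 with bars at the means of 3 samples. The 3 B6 CD8+ samples lie at 1.36 to 1.80 for *Eomes* over *Tbx21*, below the 3 CD8.2 samples at 2.93 to 3.39.

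The ZEB genes gave no called difference. *Zeb1* (ENSMUSG00000024238.13, chromosome 18) was at 43.6 to 58.4 CPM in B6 CD4+ cells, 49.4 to 51.0 CPM in B6 CD8+ cells, 40.7 to 55.8 CPM in CD8.1 cells and 50.7 to 54.9 CPM in CD8.2 cells, and neighbouring groups overlapped. Its largest log2 fold change between 2 groups was −0.20 (SE 0.118, adjusted p = 0.219, edgeR), for CD8.1 against CD8.2 cells, and this passed without CD8.1 replicate 3 (adjusted p = 0.0229). *Zeb2* (ENSMUSG00000026872.17, chromosome 2, 44983632 to 45117395) had 5, 5 and 0 counts in B6 CD4+ cells, 6, 9 and 4 in B6 CD8+ cells, 10, 8 and 6 in CD8.1 cells and 9, 12 and 7 in CD8.2 cells. It was the only factor removed by the filter on low counts, and a difference was not detectable at this depth. With no filter, its adjusted p was 0.346 to 1 over the 5 comparisons. *Zeb1*, *Zeb2*, *Bhlhe40*, *Maf* and *Rora* overlap other annotated genes, and those in the table were at most 0.454 CPM on average in any group.

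Across the 9 factors tested, out of 13118 genes, the shares called were read beside those of all genes. Within B6 mice, 2 factors were higher in CD4+ cells (*Maf* and *Prdm1*), where 11.4% of all genes were, and 3 were higher in CD8+ cells (*Tbx21*, *Eomes* and *Id2*), where 11.7% were. Within CD8Dual mice, 4 were higher in CD8.1 (*Maf*, *Prdm1*, *Bhlhe40* and *Rora*), against 14.9% of genes, and 2 were higher in CD8.2 cells (*Tbx21* and *Eomes*), against 13.8%. By the limits that the methods give for differentially expressed genes, a fold change over 5 and a p under 0.05, which was taken here as unadjusted, 4 factors passed in each strain, where 3.29% of genes did in B6 and 3.32% in CD8Dual mice. These were *Tbx21*, *Eomes* and *Maf* in both, with *Prdm1* in B6 and *Bhlhe40* in CD8Dual mice. The median absolute log2 fold change was 0.70 over the factors and 0.20 over all genes within B6 mice, and 1.67 and 0.24 within CD8Dual mice.

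Between strains, 5 factors were higher in CD8.1 cells than in B6 CD4+ cells (*Bhlhe40*, *Eomes*, *Id2*, *Maf* and *Rora*), where 6.94% of all genes were. The count was 3 without B6 CD4 replicate 1. By edgeR 0 factors were lower, where 5.82% of genes were, also 0 at an unadjusted p under 0.05 and 0 by DESeq2 and limma-voom. For CD8.2 against B6 CD8+ cells, 1 was higher (*Prdm1*), against 3.29% of genes, and 1 lower (*Tbx21*), against 4.66%. That total of 2 was 1 without B6 CD8 replicate 1 or CD8.2 replicate 2 or 3. By the limits of fold change over 5 and unadjusted p under 0.05, edgeR, DESeq2 and limma-voom each gave 0 factors in both comparisons, where edgeR gave 0.61% and 0.579% of genes. The median absolute log2 fold change of the factors was 0.54 for CD8.1 against B6 CD4+ cells and 0.14 for CD8.2 against B6 CD8+ cells, beside 0.19 and 0.17 over all genes.

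**Figure D3:**
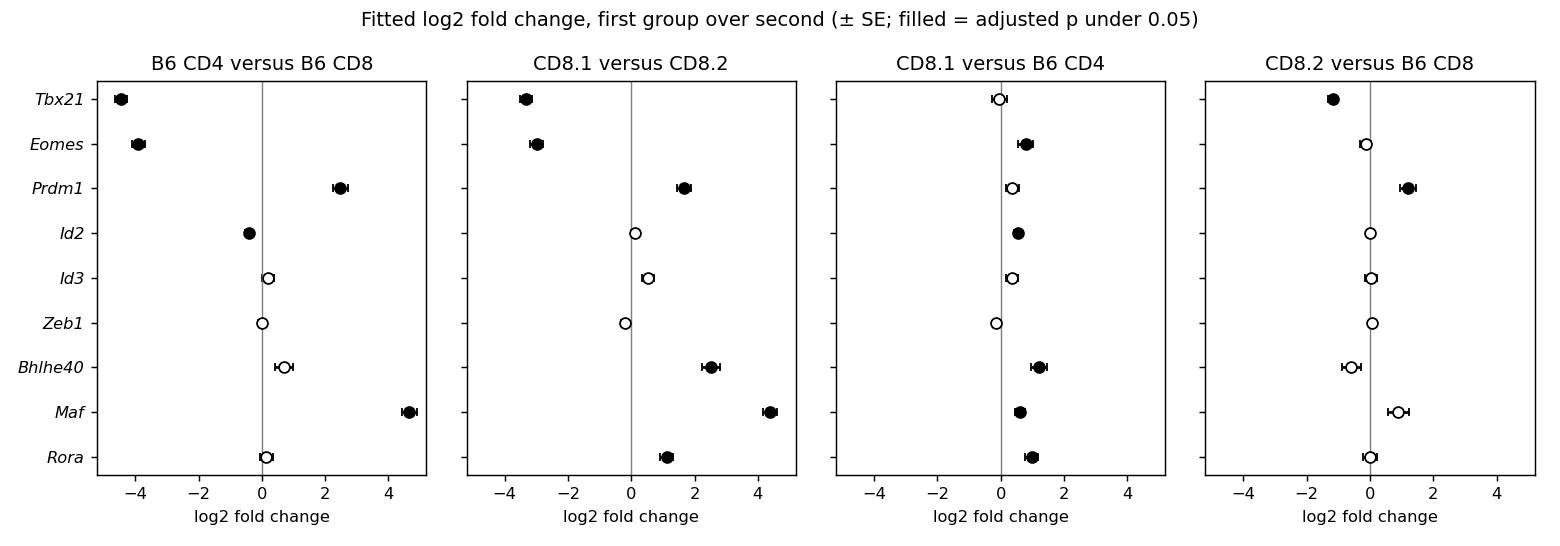
Fitted log2 fold changes of the 9 tested factors, first group over second, in 4 comparisons, with bars for the SE and filled points where the adjusted p was under 0.05. *Tbx21* and *Eomes* lie left of 0 and *Maf* and *Prdm1* right of 0 within both strains, and 5 factors are filled to the right for CD8.1 against B6 CD4+ cells.

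Whether the CD4-type to CD8-type difference itself differed between the strains was tested as an interaction. *Bhlhe40* was the 1 factor with a positive call, against 1.58% of all genes, its difference being larger in CD8Dual mice by 1.81 on the log2 scale (SE 0.396, adjusted p = 0.0248, edgeR). That call was lost without any 1 of 6 samples (B6 CD4 replicate 2, B6 CD8 replicate 2 or 3, CD8.1 replicate 2, CD8.2 replicate 1 or 3), with adjusted p up to 0.11. Without CD8.2 replicate 3 the interaction of *Bhlhe40* was 1.62 (adjusted p = 0.105, edgeR). *Tbx21* had an interaction of 1.14 (SE 0.280, adjusted p = 0.0521, edgeR), its difference being smaller in CD8Dual mice, and passed with DESeq2 (adjusted p = 0.00367) and without B6 CD4 replicate 3 (adjusted p = 0.0125) or CD8.1 replicate 1 (adjusted p = 0.0198). For *Eomes* the interaction was 0.93 (SE 0.292, adjusted p = 0.162, edgeR), which passed with DESeq2 (adjusted p = 0.0398) and without CD8.1 replicate 1 (adjusted p = 0.0185). By edgeR 0 factors had a negative call, against 0.29% of genes, with 1 (*Prdm1*, −0.81) at an unadjusted p under 0.05 and 0 by DESeq2 and limma-voom. On the positive side 5 had an unadjusted p under 0.05 by edgeR. Besides the 3 above, these were *Rora* (0.98, SE 0.294, adjusted p = 0.132, edgeR) and *Id2* (0.53, SE 0.160, adjusted p = 0.141, edgeR). The shares of all genes above are for the adjusted limit, and none is given for the unadjusted limit. With no filter on low counts, *Rora* (adjusted p = 0.00518, edgeR) and *Id2* (adjusted p = 0.0142, edgeR) passed, as did *Tbx21* and *Eomes*.

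Known targets of T-box factors were examined as a list of 18 genes, of which 15 were tested. Within B6 mice 10 were lower in CD4+ than in CD8+ cells and 2 (*Klrg1* and *Fasl*) were higher, where 11.7% and 11.4% of all genes were, with a median log2 fold change of −2.31 beside 0 over all genes tested. *Nkg7*, a cytotoxic granule protein, was at 3.13 CPM in B6 CD4+ cells and 525 CPM in B6 CD8+ cells, and *Gzmm*, which encodes granzyme M, at 0.379 and 27.1 CPM. The chemokine gene *Ccl5* was at 2.10 and 121 CPM, and *Il18rap*, a subunit of the IL-18 receptor, at 1.44 and 57.2 CPM. Within CD8Dual mice 10 were lower in CD8.1 cells than in CD8.2 cells and 3 (*Gzmb*, *Klrg1* and *Fasl*) were higher, where 13.8% and 14.9% of all genes were, with a median of −1.09. *Nkg7* was at 8.56 CPM in CD8.1 cells and 408 CPM in CD8.2 cells and *Gzmm* at 0.463 and 6.10 CPM.

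*Klrg1*, an inhibitory receptor also found on regulatory T cells, was at 9.80 CPM in CD8.1 cells and 2.23 CPM in B6 CD4+ cells, against 0.139 CPM in CD8.2 cells and 0.0515 CPM in B6 CD8+ cells, where single libraries had at most 7 and 2 counts. *Fasl*, which encodes Fas ligand, was at 6.13 CPM in CD8.1 cells, 7.56 CPM in B6 CD4+ cells, 0.739 CPM in CD8.2 cells and 1.79 CPM in B6 CD8+ cells. *Gzmb*, which encodes granzyme B, was at 5.73 CPM in CD8.1 cells and 0.945 CPM in CD8.2 cells, and at 0.909 and 1.64 CPM in B6 CD4+ cells and B6 CD8+ cells, which did not pass (adjusted p = 0.116, edgeR).

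The targets also differed between strains. Of the 15 tested, 6 (*Il2rb*, *Ccl5*, *Gzmm*, *Il18rap*, *Fasl* and *Ctsw*) were lower in CD8.2 cells than in B6 CD8+ cells, with a median of −0.37, where 4.66% of all genes were lower. None was higher by edgeR (0), also 0 at an unadjusted p under 0.05 and 0 by DESeq2 and limma-voom. *Ccl5* fell from 121 to 25.1 CPM, a log2 fold change of −2.27 (SE 0.149, adjusted p = 6.41e-07, edgeR), and *Gzmm* from 27.1 to 6.10 CPM, a log2 fold change of −2.16 (SE 0.131, adjusted p = 5.10e-07, edgeR). *Nkg7*, at 408 against 525 CPM, did not pass (log2 fold change −0.37, SE 0.143, adjusted p = 0.133, edgeR). In CD8.1 cells 7 (*Il2rb*, *Cxcr3*, *Ccl5*, *Gzmb*, *Nkg7*, *Klrg1* and *Il18rap*) were higher than in B6 CD4+ cells, with a median of 1.2, where 6.94% of all genes were higher, and by edgeR 0 were lower (also 0 at an unadjusted p under 0.05 and 0 by DESeq2 and limma-voom). *Il2rb*, *Cxcr3*, *Ccl5* and *Nkg7* are also in the memory marker list.

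**Figure D4:**
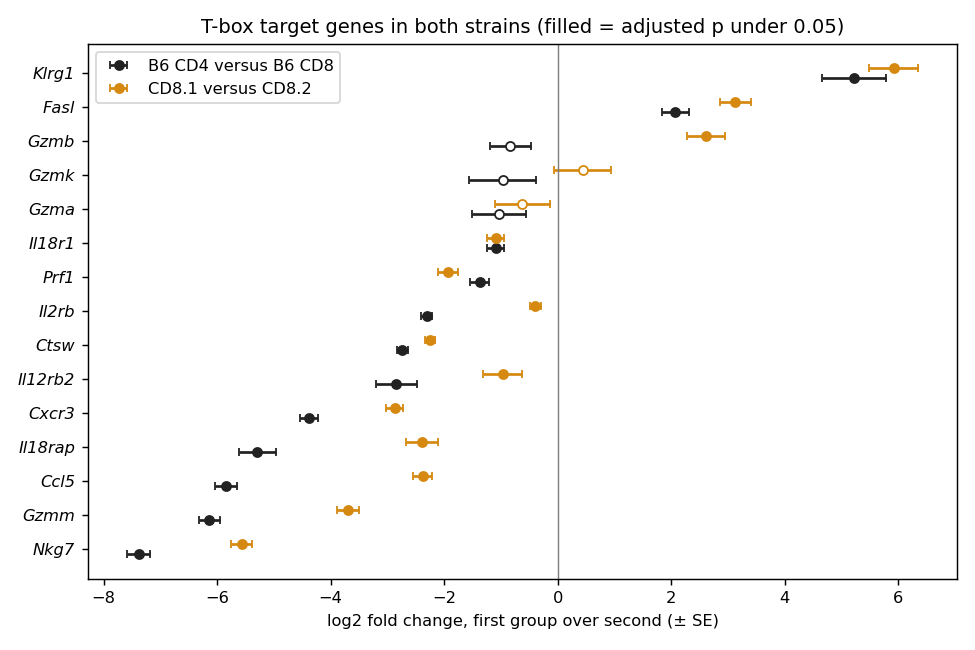
Fitted log2 fold changes of the 15 tested T-box target genes for B6 CD4+ against B6 CD8+ cells (black) and CD8.1 against CD8.2 cells (orange), with bars for the SE and filled points where the adjusted p was under 0.05. In each strain 10 genes are filled left of 0. The values of *Klrg1* rest on at most 7 counts per library in the CD8-type groups and depend on the prior count of the fit.

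Genes linked to c-Maf and Blimp-1 were examined as a list of 15 receptors and cytokines, of which 11 were tested. Within B6 mice 5 (*Icos*, *Il21*, *Ccr6*, *Lag3* and *Il1rl1*) were higher in CD4+ cells and 2 (*Ccr2* and *Cxcr5*) were lower, with a median log2 fold change of 0.59, where 11.4% and 11.7% of all genes were. Within CD8Dual mice 9 were higher in CD8.1 cells and 1 (*Cxcr5*) was lower, with a median of 2.30, where 14.9% and 13.8% of all genes were. All 10 regulatory T cell markers were higher in CD8.1 cells as well, with *Foxp3* at 140 against 1.24 CPM in CD8.2 cells, and their part in the values of this list was not tested. *Il1rl1*, which encodes the IL-33 receptor, was at 11.8 CPM in CD8.1 cells, 1.42 CPM in B6 CD4+ cells and 0.0946 CPM in CD8.2 cells and had 0 counts in B6 CD8+ cells. *Tigit*, an inhibitory receptor, was at 16.1 CPM in CD8.1 cells and 1.36 CPM in CD8.2 cells, and the chemokine receptor gene *Ccr6* at 11.1 and 1.57 CPM. *Il21*, which encodes a helper cytokine, was at 0.657 CPM in B6 CD4+ cells and had 0 counts in B6 CD8+ cells. *Il10* was too low to be tested, at 0.237 to 0.619 CPM in CD8.1 cells. Against B6 CD4+ cells, 6 of the 11 were higher in CD8.1 cells, where 6.94% of all genes were, and by edgeR 0 were lower, also 0 at an unadjusted p under 0.05 and 0 by DESeq2 and limma-voom.

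Other factors of T cell differentiation gave a background for these levels. Among 5 E protein and other Id genes, 4 were tested. *Tcf4* was higher in B6 CD4+ cells than in B6 CD8+ cells (3.69 and 1.26 CPM) and in CD8.1 cells than in CD8.2 cells (3.27 and 1.92 CPM), and *Tcf12* was lower in the CD4-type cells of both strains (89.6 against 130 CPM in B6 and 82.4 against 114 CPM in CD8Dual mice). *Tcf3*, the third of the E protein genes, was lower in B6 CD4+ cells than in B6 CD8+ cells (70.2 and 87.9 CPM). Among 10 factors of naive and memory precursor cells, 6 (*Tcf7*, *Bcl6*, *Bach2*, *Foxo1*, *Satb1* and *Tox*) were higher in the CD4-type cells of each strain, with medians of 0.42 in B6 and 0.26 in CD8Dual mice, where 11.4% and 14.9% of all genes were. *Klf3* was lower in B6 CD4+ cells than in B6 CD8+ cells (148 and 181 CPM, adjusted p = 0.0103, edgeR). Between strains, 3 of the 10 (*Bach2*, *Foxo1* and *Satb1*) were lower in CD8.1 cells than in B6 CD4+ cells, where 5.82% of all genes were. By edgeR 0 were higher there, where 6.94% of all genes were, with 4 at an unadjusted p under 0.05 and 1 by DESeq2. That share is for the adjusted limit, and none is given for the unadjusted limit. *Bcl6*, a repressor that opposes Blimp-1, was at 21.9 against 13.1 CPM in B6 and 24.1 against 15.8 CPM in CD8Dual mice.

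Among 18 tested factors of other effector and helper subsets, 7 were higher and 5 lower in B6 CD4+ cells than in B6 CD8+ cells, and 12 were higher and 5 lower in CD8.1 cells than in CD8.2 cells. The medians were 0.34 and 0.74, and 11.4% and 11.7% of all genes were higher and lower within B6 mice and 14.9% and 13.8% within CD8Dual mice. *Runx2* was at 0.803 CPM in B6 CD4+ cells and 13.1 CPM in B6 CD8+ cells. *Tox2* was at 1.48 CPM in B6 CD4+ cells and 0.066 CPM in B6 CD8+ cells, which is under the floor, and was at 2.95 CPM in CD8.1 cells and 0.391 CPM in CD8.2 cells. *Nr4a1*, induced by TCR signalling, was at 57.8 and 13.0 CPM in B6 CD4+ cells and B6 CD8+ cells. *Zbtb32* was at 4.56 CPM in CD8.1 cells and at 0.832 CPM in CD8.2 cells.

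The genes whose pattern over the 12 samples was most like that of a factor were found by the root mean square (RMS) difference of centred log2 CPM, among genes with a mean of at least 5 CPM. For *Tbx21* these were *Eng*, *Snai3* and *Haao*, with differences of 0.347, 0.348 and 0.442 beside a median of 1.976 over 9164 genes. For *Eomes* they were *Cxxc5*, *A930002I21Rik* and *Cxcr3* at 0.248, 0.314 and 0.349 (median 1.756). *Cxcr3*, a chemokine receptor gene, was at 5.58, 117, 14.6 and 107 CPM in B6 CD4+ cells, B6 CD8+, CD8.1 and CD8.2 cells. *Nxpe3* and *Cd9* were among the nearest to *Prdm1*, at 0.362 and 0.379 (median 1.156). *Cd81*, *Sp6* and *Lgmn* were nearest to *Maf*, at 0.371, 0.476 and 0.509 (median 2.221). *Cldn10*, *Dusp4* and *Tnfrsf9* were nearest to *Bhlhe40*, at 0.365, 0.418 and 0.419 (median 0.981), and *Tnfrsf9* is 1 of the regulatory T cell markers. The 12 samples share 4 groups, so such likeness is a description.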

How the data were processed

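Raw read counts per gene were deposited for 12 samples of sorted LN T cells. The authors made libraries with a low-input RNA kit. Per their methods, paired reads were aligned to mm10 with STAR and counted with RSEM, whereas the deposited column headers name STAR counts. The counts are whole numbers and were not normalized. Versions, annotation and strand setting are not given in the sources used here. Samples were grouped by their titles.

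In R 4.3.3, edgeR 4.0.16 (glmQLFit and glmQLFTest, TMM, filterByExpr) tested 13118 of 49585 genes in 1 model of 4 groups. A gene was called at a Benjamini-Hochberg adjusted p under 0.05 over all tested genes, and CPM were scaled by TMM. Each SE was derived as the absolute log2 fold change over the square root of the F statistic of its test, so it is approximate. The fit was first tested on simulated data. Positions and exon lengths were taken from GENCODE M21 (GRCm38). Replicates differed by a chi-square per gene of 8.48 to 83.7, so none was a duplicate. Deviations of same-numbered B6 samples had r = 0.126, 0.138 and 0.257, beside −0.221 to 0.0999 for the other B6 pairs. These weak values do not settle whether the numbers in the titles pair B6 CD4+ with B6 CD8+ samples. Alternatives were DESeq2 1.42.0, limma 3.58.1 (voom), other filters and call limits, only the groups compared, a replicate block and leaving out each sample.

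The factors, gene lists and rules were chosen with earlier results of these data known. Named genes are all factors, up to 4 called genes per list with the largest change in each strain, and the 3 genes most alike for factors past the study's limits, while other genes (such as *Cd44*, *Jchain* and *Il10*) were named after their values were seen. Some genes that the rule names are not reported here. No sample was left out. Figures used matplotlib.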

Additional observations from a re-analysis of the deposited data

Results flagged for a closer look

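*Bhlhe40* was picked out because its CD4-type to CD8-type difference was larger in CD8Dual than in B6 mice by 1.81 on the log2 scale (SE 0.396, adjusted p = 0.0248, edgeR). CD8.1 exceeded CD8.2 samples in all 3 against 3 samples, with means of 6.40 and 1.14 CPM, while B6 CD4+ and B6 CD8+ samples overlapped, with means of 2.74 and 1.68 CPM. Leaving out each of the 12 samples gave 1.51 to 2.00, and the call remained in 6 of 12.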

How the results depend on the processing

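Of 846 refits of 45 log2 fold changes, 782 kept direction and side of the threshold. None of the 21 changes of sign concerned a called difference. The log2 fold change was 0 for *Zeb1* within B6 mice and 0.01 for *Tbx21* between CD8.1 and B6 CD4+ cells with limma-voom, and 0 for *Rora* between CD8.2 and B6 CD8+ cells with DESeq2 size factors or a mean of at least 1 CPM. Leaving out 1 sample gave −0.12 to 0.37 for *Id3*, −0.11 to 0.11 for *Zeb1* and −0.03 to 0.26 for *Rora* within B6 mice, −0.28 to 0.21 for *Tbx21* between CD8.1 and B6 CD4+ cells, and −0.28 to 0.08 for *Eomes*, −0.09 to 0.11 for *Id2*, −0.07 to 0.19 for *Id3* and −0.18 to 0.11 for *Rora* between CD8.2 and B6 CD8+ cells. The causes were not tested.

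Factors called ranged, leaving out 1 sample, over 4 to 6 within B6, 6 to 7 within CD8Dual mice, 3 to 5 for CD8.1 against B6 CD4+, 1 to 3 for CD8.2 against B6 CD8+ cells and 0 to 3 for the interaction. All genes called ranged over 2418 to 3748, 2632 to 5013, 765 to 2958, 431 to 1913 and 165 to 1356, each highest without CD8.1 replicate 1. With adjusted p and over 2-fold, 1 factor passed for CD8.1 against B6 CD4+ cells, and with the limits of over 5-fold 0 passed there, for CD8.2 against B6 CD8+ cells and for the interaction. The interaction called 3 factors with DESeq2 and 5 with no filter, and 410 and 620 of all genes against 245. For all genes, over 5-fold limits gave 431, 435, 80, 76 and 152 calls in the order above, and adjusted p with over 2-fold gave 1104, 1200, 408 and 222 in the first 4. With only the groups compared, 674 genes were called for CD8.1 against B6 CD4+ and 2515 for CD8.2 against B6 CD8+ cells, the latter 1593 with no filter.

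The replicate block changed no call of a factor within B6 mice (5 factors). Deviations of same-numbered CD8Dual samples had r = −0.00388, 0.0905 and 0.119, beside −0.127 to 0.0321 for the other CD8Dual pairs. These weak values do not settle whether the numbers pair CD8.1 with CD8.2 samples. Same-numbered samples of different strains did not deviate together (r = −0.197 to −0.00411). With the block, *Id3* passed within CD8Dual mice (0.51, adjusted p = 0.00243, edgeR). *Eomes* then did not pass for CD8.1 against B6 CD4+ cells (adjusted p = 0.0509, edgeR), where the block joined same-numbered samples of different strains. The interaction with the block called 2 factors, *Bhlhe40* and *Tbx21* (1.16, adjusted p = 0.0286, edgeR). Depth limits *Zeb2*, at 0 to 12 counts per sample.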
